A study of Bos taurus with 46 samples.

Results

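Circulating leukocytes of 6 heifers, each carrying in vitro produced (IVP) conceptuses of normal size, were sequenced on D55 and again on D105 of gestation, and the D105 library of each heifer was compared with her own D55 library. These 12 libraries were taken from the 46 of the series (6 of its 23 heifers) by 2 labels, the fetal group ARTnormal, called IVP-Normal here, and the day. The heifers were Angus crossbreds of breeding age that had received embryos fertilized in vitro with semen of a single Brahman bull and cultured with serum, and their fetuses weighed less at D105 than the limit for overgrowth set on fetuses conceived by artificial insemination (AI). Heifers 628 and 688 carried 2 fetuses and the other 4 heifers carried 1. The other heifers of the series, used only for a side by side comparison at the end, were 8 AI heifers and 9 heifers with overgrown IVP fetuses (IVP-LOS, large offspring syndrome). No heifer was left unbred, so a change between days was measured in pregnant heifers only, and because the D105 blood of each heifer was drawn after the D55 blood, stage of pregnancy and calendar time cannot be told apart.

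Blood leukocytes are a mixture of lymphocytes, monocytes, neutrophils and eosinophils. Neutrophils are recruited to tissue by chemoattractants such as interleukin 8 and complement C5a, carry preformed granules of antimicrobial proteins, and are the first phagocytes to reach an infection. In ruminants the conceptus signals its presence early in pregnancy with interferon tau, an interferon of the trophoblast that induces interferon-stimulated genes in the mother, leukocytes included. The cells were the buffy coat of EDTA blood after lysis of red cells, so the libraries hold whatever leukocytes that layer contained, and in such bulk RNA fewer cells of a type and less RNA per cell cannot be told apart.

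Between 21.4 M and 24.3 M reads per library were counted on genes on D55 (median 23.2 M) and between 21.8 M and 24.2 M on D105 (median 22.7 M), where M stands for 1000000 reads. All 12 libraries belong to the set named New in the labels. Neither the depth (exact paired permutation test over 6 heifers, two-sided, p = 0.3125) nor the share of reads on no gene (p = 0.78125) differed between the days beyond the spread of the heifers, where the smallest p such a test can give is 0.03125. Heifer 560 stood apart in that share, which was 4.03 percentage points higher in her D105 library than in her D55 library. The pan-leukocyte genes PTPRC, CD53, CORO1A and LCP1 summed to a median of 4962 CPM on D55 (counts per 1000000, scaled by the TMM method of edgeR) and 4494 CPM on D105. Their sum was higher on D105 in 1 of 6 heifers. The placental markers PAG2, PAG11, CSH2 and PRP1 had 0 reads in all 12 libraries.

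Of 15248 genes with enough reads to test, 838 (5.5%) changed between the days at a false discovery rate (FDR) of at most 0.05. On D105, 684 genes (4.49%) were higher and 154 (1.01%) were lower. The increases were also larger, with a median log2 fold change of 1.21 against -0.56 for the decreases, while the median of all tested genes was -0.03. At least 8-fold increases were found for 86 genes, and no gene fell by as much. Of all tested genes, 1122 were higher and 1063 were lower on D105 in every heifer, and these include 633 of the genes that rose and 146 of those that fell. Without the pairing by heifer 346 genes rose and 28 fell, without the heifers 628 and 688 these numbers were 190 and 15, and without heifer 688 alone 385 rose. Fits on fewer heifers, here and in the lists below, have less power to detect a change. The part of fetus number in these counts was not tested.

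The 10 named genes with the smallest FDR among those that rose were ALOX5, MGAM, ISG15, EMB, SLC28A3, ADGRE3, DGKG, HPGD, VNN2 and CRISPLD2. The 10 that fell were 7 genes for histones, HIST3H2A, HIST1H1E_1, HIST2H2AB, HIST2H2BF, HIST1H2AC, HIST1H2BM and HIST3H2BB, together with PRDM16, FADS1 and LURAP1. Loci with symbols that begin with LOC made up 167 (24.4%) of the genes that rose and 17.2% of those tested, with LOC100139881 (log2 fold change 4.66 ± 0.27 SE) and LOC100297044 (4.27 ± 0.25) having the smallest FDR. Every D105 library was above every D55 library for 285 genes (1.87% of those tested) and below for 55 genes (0.361%).

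**Figure D1:**
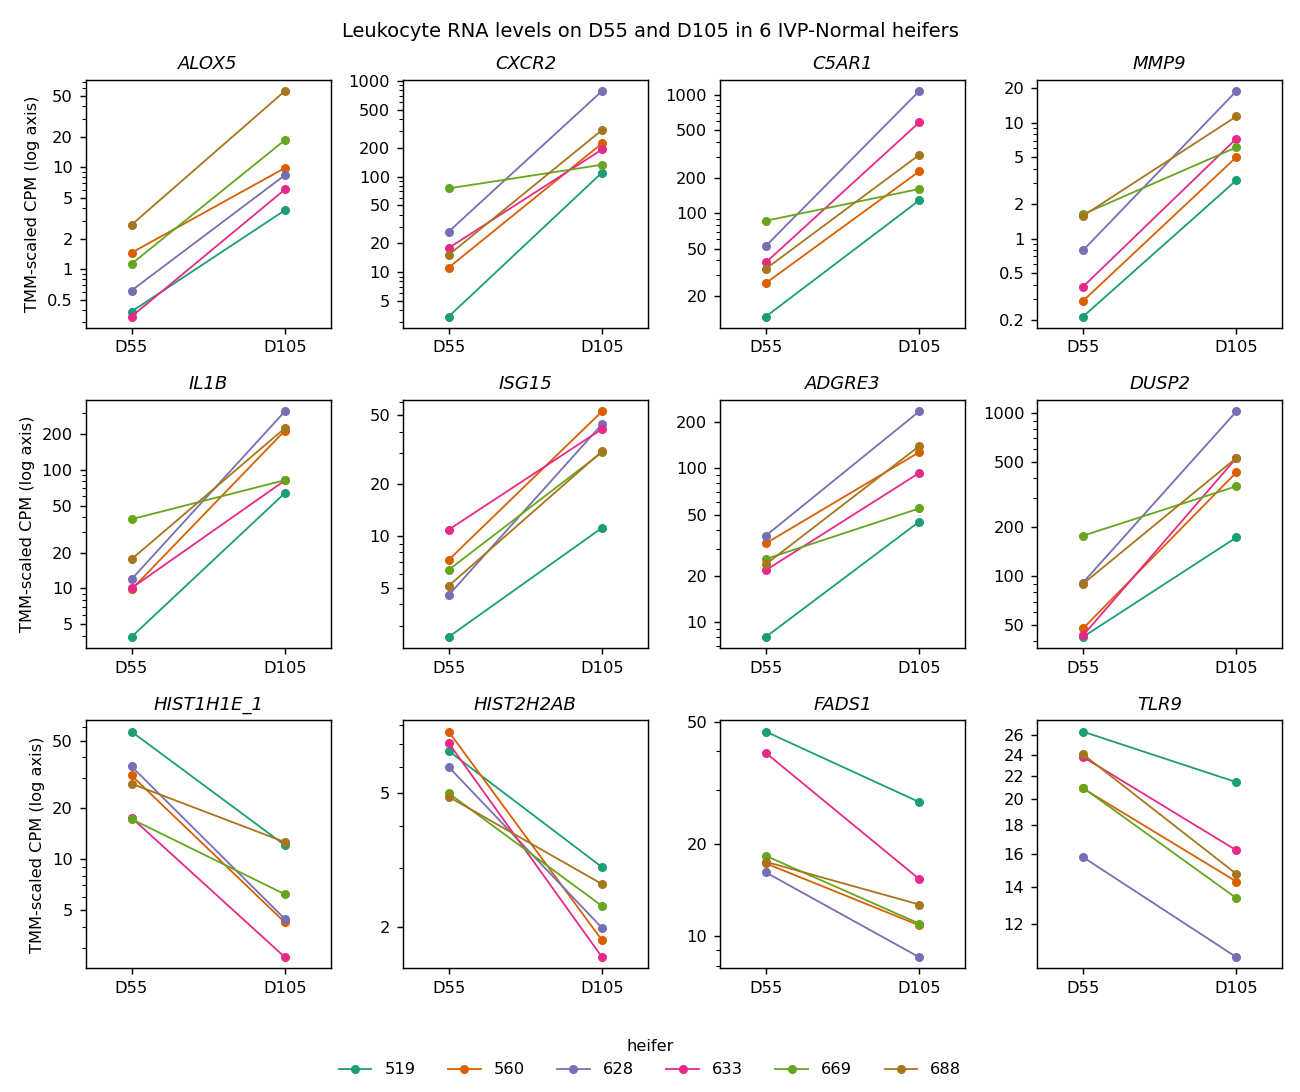
Levels of 12 genes in the 6 IVP-Normal heifers, in TMM-scaled CPM on a log axis, with 1 line for each heifer from D55 to D105. The 8 genes of the upper rows were higher on D105 in all 6 heifers, and the 4 genes of the lowest row were lower in all 6.

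The receptors that guide neutrophils had the highest median change of the 34 gene lists examined. For this list and those that follow, the share to compare is that of all tested genes, 4.49% that rose and 1.01% that fell. Of 8 chemoattractant receptor genes tested, 5 rose and none fell, with a list median of 2.51 on the log2 scale, and all 5 still passed the test whichever heifer was left out. CXCR2, a receptor for interleukin 8, ranged from 3.44 to 75.1 CPM on D55 (median 16.6 CPM) and from 110.1 to 782.2 CPM on D105 (median 207 CPM). The days did not overlap, and the fitted change was 14.6-fold (log2 3.86 ± 0.50 SE, FDR 0.00196). CXCR1, the second receptor of that ligand, went from a median of 4.14 to 92.6 CPM (log2 4.60 ± 0.62, FDR 0.00217). For C5AR1, the receptor of complement C5a, D55 values lay between 13.4 and 86.3 CPM (median 36.1 CPM) and D105 values between 128 and 1077 CPM (median 268 CPM), a 9.02-fold increase without overlap (log2 3.17 ± 0.38, FDR 0.00131). C5AR2 (3.10 ± 0.42) and the platelet activating factor receptor PTAFR (1.92 ± 0.31) also rose. The other members tested, CMKLR1, C3AR1 and LTB4R, had log2 fold changes of -0.37, -0.45 and -0.17 and did not pass the test.

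Genes for the contents of neutrophil granules and for the calgranulins rose in 8 of 12 cases, with a median log2 fold change of 1.07. MMP9, which encodes gelatinase B, was scarce on D55 (0.212 to 1.62 CPM, median 0.588 CPM) and reached 3.18 to 18.7 CPM (median 6.7 CPM) on D105. Its groups did not overlap (log2 3.45 ± 0.34 SE, FDR 0.00055). The calgranulin subunit S100A9 rose from a median of 109 to 263 CPM (1.37 ± 0.24), and S100A8 and S100A12 by 1.0 ± 0.24 and 0.98 ± 0.24 on the log2 scale. OLFM4 (2.17 ± 0.37), the membrane protease MMP25 (0.86 ± 0.15), CHI3L1 (1.14 ± 0.27) and lactoferrin, LTF (2.03 ± 0.38, medians 0.259 and 0.906 CPM), completed the group. The members ELANE (2.21, FDR 0.0612), PGLYRP1 (0.95), BPI (0.50) and LCN2 (-0.08) did not pass. Without heifer 633 or without heifer 688, 5 of the 12 rose.

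A broader list of neutrophil identity and activation genes held 10 that rose among 18 tested (median 1.12). ALPL, the alkaline phosphatase of neutrophils, was near the limit of detection on D55, with 2 to 21 reads per library, and had 101 to 609 reads on D105. Its levels went from a median of 0.34 to 4.97 CPM (20.6-fold, log2 4.37 ± 0.52 SE, FDR 0.00131). NCF1, a subunit of the oxidase that makes superoxide, rose by 1.15 ± 0.17 and the receptor TREM1 by 1.2 ± 0.20. The oxidase subunits CYBB (-0.33), NCF4 (0.12) and CYBA (0.06) did not pass. CXCL8, which encodes interleukin 8 itself, rose from a median of 22.8 to 82.4 CPM (2.40 ± 0.47, FDR 0.0147). Without heifer 688, 6 of the 18 genes rose.

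Among the enzymes that make and remove lipid mediators, 4 of 14 genes rose and none fell. ALOX5, the 5-lipoxygenase that starts leukotriene synthesis, shared the smallest FDR of all tested genes (2.62e-05) with MGAM, LOC100139881 and LOC100297044. It measured 0.342 to 2.73 CPM on D55 (median 0.87 CPM) and 3.79 to 56.5 CPM on D105 (median 9.14 CPM), so every D105 library lay above every D55 library, and the increase was 13.5-fold (log2 3.76 ± 0.22 SE). ALOX5AP, which presents arachidonic acid to that enzyme, rose by 1.97 ± 0.37 (medians 7.99 and 32.8 CPM). HPGD, which inactivates prostaglandins, went from at most 1.03 CPM (median 0.401 CPM) to between 1.53 and 19.6 CPM (median 5.3 CPM), also without overlap (3.80 ± 0.35, FDR 0.000498). PTGER4, a receptor of prostaglandin E2, rose by 0.54 ± 0.12, a call lost without heifer 628, 633 or 688. The next enzyme of leukotriene B4 synthesis, LTA4H, measured 38.8 and 40.7 CPM (medians; log2 0.21, FDR 0.411), and the inducible cyclooxygenase PTGS2 had a log2 value of 1.41 that missed the threshold (FDR 0.0589).

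Eosinophil and basophil genes rose in 4 of 7 cases (median 1.49). ADGRE3, an adhesion receptor of myeloid cells, ranged from 8.03 to 36.5 CPM on D55 (median 24.8 CPM) and from 45 to 234 CPM on D105 (median 110 CPM), without overlap (log2 2.15 ± 0.19 SE, FDR 0.000354). ALOX15, the 15-lipoxygenase typical of eosinophils, rose from a median of 1.45 to 26.8 CPM (4.07 ± 0.41), with overlap, and in heifer 633 only from 1.07 to 1.62 CPM. SIGLEC8, an inhibitory receptor of eosinophils, rose from a median of 14.3 to 44.2 CPM (1.87 ± 0.25), without overlap. The transcription factor GATA1, used by eosinophil, basophil and red cell lineages, rose by 1.49 ± 0.29, but not without heifer 688. In contrast, the eosinophil receptors CCR3 (0.07, FDR 0.836) and IL5RA (0.44, FDR 0.36) did not pass the test.

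Several genes outside the lists had very large increases. The nucleoside transporter SLC28A3 had 2 to 40 reads per library on D55 (0.085 to 1.8 CPM, median 0.589 CPM) and 12.3 to 71 CPM on D105 (median 22.7 CPM), a 39.5-fold increase (log2 5.30 ± 0.42 SE, FDR 0.000208) with no overlap. TGM3, a transglutaminase that crosslinks proteins, rose 35.5-fold (5.15 ± 0.64), from a median of 6.49 to 182 CPM, and TCN1, the vitamin B12 binder of neutrophil granules, rose by 4.90 ± 0.51 on the log2 scale, from 2 to 53.8 CPM. CRISPLD2, a secreted protein that binds bacterial lipopolysaccharide, went from 0.51 to 7.38 CPM (median 3.81 CPM) to 22.5 to 211 CPM (median 84.2 CPM), again without overlap (4.44 ± 0.42, FDR 0.000498). The protease inhibitor SERPINB4 (4.94 ± 0.49) had 0 to 5 reads per library on D55 and 12 to 314 on D105, so its fold change depends on very few reads.

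The remaining genes at the top of the ranking differ widely in known function. MGAM, an enzyme that splits maltose and starch fragments, went from 0.255 to 2.73 CPM (median 0.718 CPM) to 3.36 to 31.6 CPM (median 7.15 CPM), without overlap (log2 3.63 ± 0.22 SE, FDR 2.62e-05). VNN2, a surface protein of neutrophils, moved from 47.7 to 83.1 CPM (median 75.9 CPM) to 162 to 693 CPM (median 302 CPM) and likewise did not overlap (2.17 ± 0.20, FDR 0.000498). EMB, the partner protein of lactate transporters, was just separated, at 7.61 to 26.6 CPM (median 20.2 CPM) and 27.7 to 143 CPM (median 78.8 CPM; 2.04 ± 0.16, FDR 0.000208). DGKG, a diacylglycerol kinase, overlapped slightly between the days, at 0.892 to 3.35 CPM (median 1.39 CPM) and 2.27 to 10.3 CPM (median 7.48 CPM; 1.99 ± 0.18, FDR 0.000498).

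**Figure D2:**
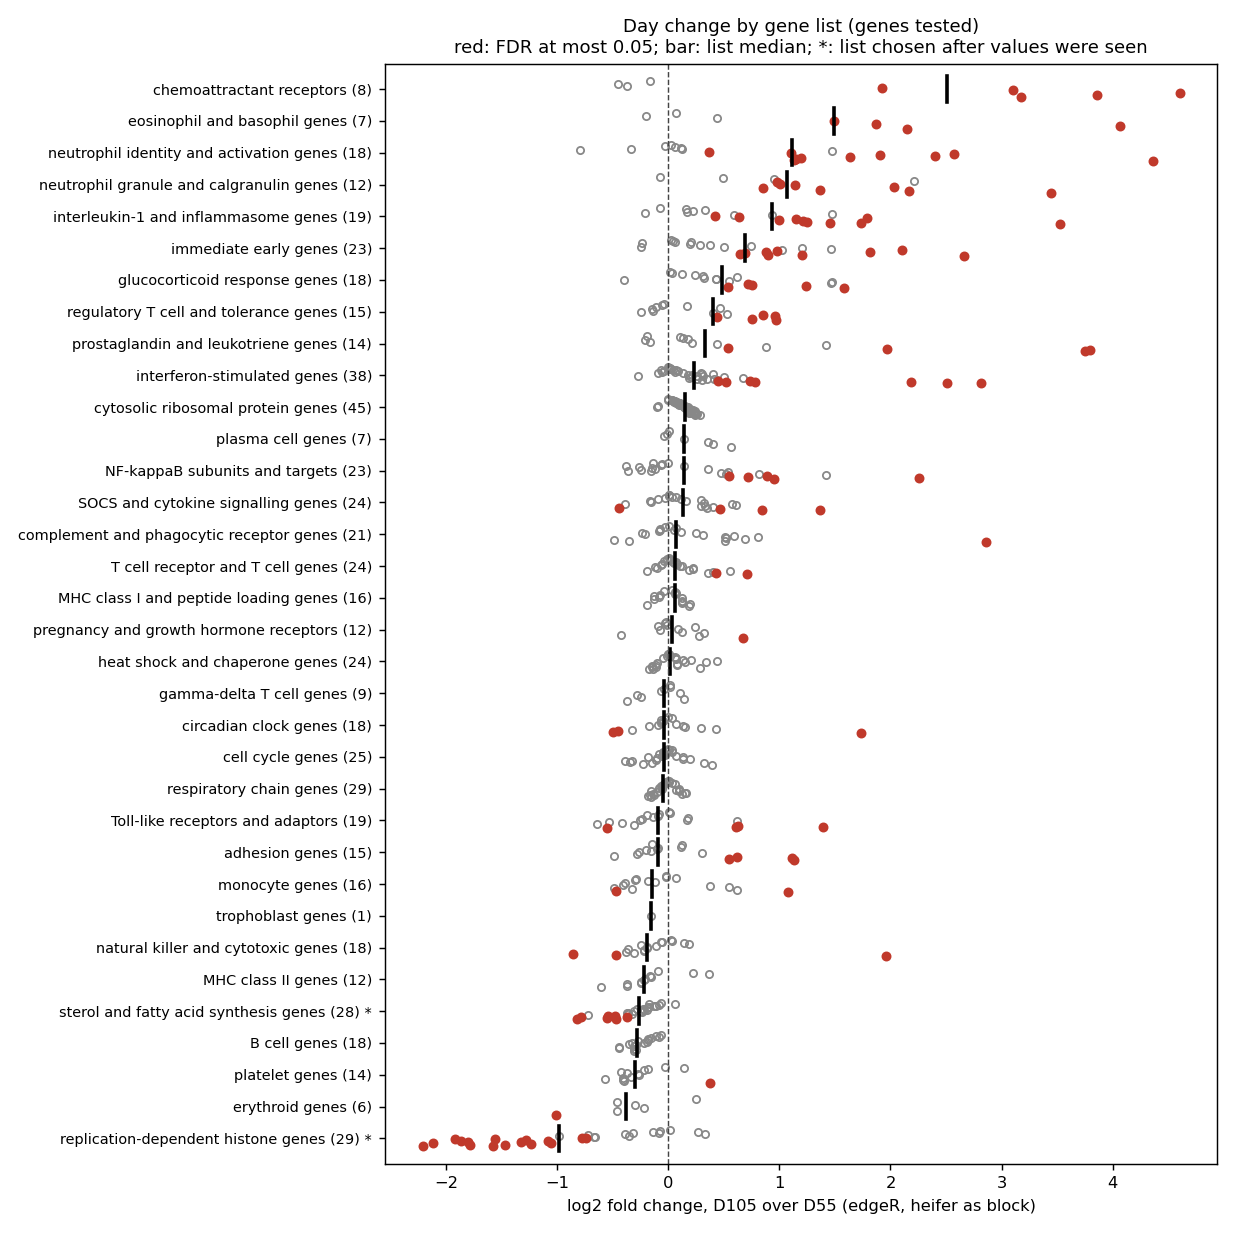
Log2 fold change of D105 over D55 for each tested gene of 34 lists, with filled points for genes at an FDR of at most 0.05, open points for the others and a bar at the list median. Chemoattractant receptors (median 2.51) stand at one end and replication-dependent histone genes (median -0.99) at the other, while lists such as the ribosomal proteins and the respiratory chain hold no filled point. An asterisk marks the 2 lists that were chosen after the values were seen.

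Interleukin-1 and inflammasome genes rose in 10 of 19 cases (median 0.94). IL1B, the inflammatory cytokine, measured 3.91 to 38.4 CPM on D55 (median 11 CPM) and 63.8 to 312 CPM on D105 (median 148 CPM). Each D105 library exceeded all D55 libraries (11.5-fold, log2 3.52 ± 0.42 SE, FDR 0.00131). Its soluble antagonist IL1RN rose at the same time, from a median of 49.1 to 129 CPM (1.45 ± 0.22), as did the receptor chains IL1R1 (1.21 ± 0.20) and IL1RAP (1.25 ± 0.20). Pyrin, MEFV (1.74 ± 0.26), and the inflammasome sensor NLRP3 (0.99 ± 0.17) rose as well, while CASP1 (0.23), PYCARD (-0.07) and GSDMD (0.17), which act after the sensors, did not pass the test. A further caspase, CASP4, rose (0.64 ± 0.12), and the sensors NLRP1 (0.33), NLRC4 (0.15) and NAIP (0.94, FDR 0.0552) did not pass. IL18 rose by 1.15 ± 0.21 and its receptor chain IL18RAP by 1.79 ± 0.33.

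Genes that act upstream and downstream of these cytokines were examined as separate lists. Of 19 genes for Toll-like receptors and their adaptors, 3 rose (15.8%) and 1 fell (5.26%), with a list median of -0.09. Over all tested genes 4.49% rose and 1.01% fell. TLR4, the lipopolysaccharide receptor, rose from a median of 34.4 to 102 CPM (log2 1.39 ± 0.26 SE, FDR 0.0117), its partner LY96 by 0.63 ± 0.14 and the adaptor MYD88 by 0.61 ± 0.13. TLR9, the sensor of bacterial DNA, fell in all 6 heifers, from 15.8 to 26.4 CPM (median 22.4 CPM) to 10.5 to 21.5 CPM (median 14.5 CPM; -0.56 ± 0.09, FDR 0.00571), with overlap. Of 23 NF-kappaB subunits and targets, 5 rose (21.7%, median 0.14). They included the chemokine CXCL2 (2.26 ± 0.42) and the feedback inhibitor NFKBIA (0.71 ± 0.16). NFKBIZ, an atypical inhibitor of the same family, went from 33.1 to 88.8 CPM (median 53.4 CPM) to 50.1 to 151 CPM (median 107 CPM; 0.95 ± 0.15, FDR 0.00406). The subunit genes REL (-0.38), NFKB1 (-0.12), NFKB2 (-0.06), RELA (-0.06) and RELB (-0.01) did not pass the test. Nor did the targets TNF (0.81, FDR 0.111), TNFAIP3 (0.47, FDR 0.132), ICAM1 (-0.27) and BIRC3 (-0.37). Without heifer 688 no gene of the list of Toll-like receptors and adaptors and 3 NF-kappaB genes rose. Without heifer 633 these numbers were 1 and 2, without heifer 628 they were 3 and 3, and without the heifers 628 and 688 no gene of either list rose.

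Immediate early genes, which respond within minutes to cell stimulation, rose in 9 of 23 cases (median 0.69). DUSP2, a phosphatase of activated leukocytes, led them, at 42.5 to 177 CPM on D55 (median 68.9 CPM) and 173 to 1026 CPM on D105 (median 483 CPM; log2 2.66 ± 0.32 SE, FDR 0.00131), with overlap through 1 library. FOSL2 (1.21 ± 0.19), ZFP36 (0.90 ± 0.14) and IER5 (0.65 ± 0.12) rose in all 6 heifers, and FOS (1.81 ± 0.45) and EGR1 (2.11 ± 0.54) in 5 of 6. JUN (-0.24) and MYC (0.02) did not pass. The count was 13 without heifer 669, 5 without heifer 628 or 633, and 4 without heifer 560 or 688, and it was 2 without both 628 and 688.

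Of 18 genes that respond to glucocorticoids, 5 rose (27.8%, median 0.49), where 4.49% of all tested genes rose. SGK1, a kinase induced by these hormones, ranged from 39.8 to 169 CPM (median 57.6 CPM) and from 105 to 405 CPM (median 196 CPM), with overlap (log2 1.58 ± 0.27 SE, FDR 0.00776). TSC22D3, ANXA1 and CXCR4 rose by 0.54 ± 0.10, 0.75 ± 0.16 and 1.24 ± 0.24. FKBP5 (0.62, FDR 0.315), PER1 (0.43, FDR 0.212) and KLF9 (0.03, FDR 0.946), among the standard targets of the receptor, did not pass, nor did the receptor gene NR3C1 (0.01). Only 3 of the 18 rose without heifer 688, and none did without the heifers 628 and 688.

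Interferon-stimulated genes included some that rose and many that did not pass the test. Of 38 tested, 7 rose (18.4%, against 4.49% of all tested genes) and none fell (median 0.23). ISG15, a ubiquitin-like protein long used as a leukocyte readout of early pregnancy in cattle, measured 2.59 to 10.8 CPM on D55 (median 5.73 CPM) and 11.1 to 52.7 CPM on D105 (median 36.3 CPM), so the days were just apart (5.70-fold, log2 2.51 ± 0.17 SE, FDR 8.88e-05). IFIT3 rose from a median of 21.3 to 162 CPM (2.82 ± 0.31) and IFIT2 from 26.7 to 135 CPM (2.19 ± 0.25). HERC6 (0.78 ± 0.13), IFIT5 (0.74 ± 0.17), XAF1 (0.52 ± 0.09) and IRF7 (0.45 ± 0.10) rose less. MX1 (-0.05, medians 403 and 413 CPM), MX2 (0.30), RSAD2 (0.26), IFI6 (0.04) and IFI44L (0.02), which the same interferons induce, did not pass. Without the heifers 628 and 688, 3 of the 38 rose.

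T cell genes and genes of regulatory T cells and tolerance were examined as 2 lists. Of 24 T cell genes, 2 rose (8.33%, median 0.06), where 4.49% of all tested genes rose. LEF1, a transcription factor of young T cells, went from 104 to 273 CPM (median 197 CPM) to 195 to 416 CPM (median 332 CPM; log2 0.70 ± 0.10 SE, FDR 0.00232), and CD28, the costimulatory receptor, rose by 0.43 ± 0.09, a call lost without heifer 628 or 688. Of 15 genes of regulatory T cells and tolerance, 5 rose (median 0.40). IL2RA, the high-affinity interleukin 2 receptor chain, measured 14.6 to 33.6 CPM (median 26 CPM) and 24 to 77.4 CPM (median 50.8 CPM; 0.96 ± 0.15, FDR 0.0047), with overlap. CTLA4 (0.96 ± 0.21), ENTPD1 (0.75 ± 0.14), NT5E (0.85 ± 0.21) and ICOS (0.43 ± 0.10) were the others. FOXP3, the transcription factor that defines the lineage, was higher in all 6 heifers but did not pass (medians 5.86 and 7.51 CPM, 0.40, FDR 0.116). Without heifer 628 or without heifer 688, 2 of the 15 rose, 3 did without heifer 633, and 1 did without both 628 and 688.

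Natural killer and cytotoxic genes, of which 18 were tested, held 1 that rose (5.56%) and 2 that fell (11.1%), with a median of -0.20. Over all tested genes 4.49% rose and 1.01% fell. GZMB, a granzyme, rose from 0.315 to 1.66 CPM (median 1.36 CPM) to 2.04 to 12.9 CPM (median 4 CPM), just without overlap (log2 1.96 ± 0.37 SE, FDR 0.0108). GZMA fell by 0.86 ± 0.21 and TBX21, the transcription factor of cytotoxic and type 1 cells, by 0.47 ± 0.11, but the call of GZMA held only without heifer 688 and that of TBX21 only without heifer 633. All 18 B cell genes had fold changes below 0 (median -0.28), yet none passed the test, the lowest FDR being that of FCER2 (-0.31, FDR 0.0649). Plasma cell genes (7 tested, led by PRDM1 at 0.56, FDR 0.0529) and gamma-delta T cell genes (9 tested, WC1 at -0.37, FDR 0.325) had no called member. MHC class II genes (12 tested, median -0.22, led by BOLA-DQA2 at -0.61, FDR 0.0612) and MHC class I genes (16 tested, median 0.06, BOLA-NC1 at 0.19, FDR 0.218) had none either. In lists this short, having no called gene is near the 5.5% of all tested genes that were called.

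In the monocyte list of 16 genes, 1 rose and 1 fell (6.25% each), against 4.49% and 1.01% of all tested genes. CD68, a lysosomal protein of phagocytes, measured 19 to 57.6 CPM (median 37.3 CPM) and 41.2 to 140 CPM (median 72.6 CPM; log2 1.08 ± 0.20 SE, FDR 0.00948), and the chemokine receptor CX3CR1 fell by 0.48 ± 0.11, a call lost without heifer 628, 633 or 669. FCAR, a receptor for immunoglobulin A, was the only called gene among 21 complement and phagocytic receptors (4.76%, near the 4.49% of all tested genes that rose). It measured 0.255 to 6.46 CPM (median 1.25 CPM) and 3.41 to 43.6 CPM (median 8.72 CPM, log2 2.86 ± 0.30, FDR 0.000775). Of 24 cytokine signalling genes, SOCS3, a feedback inhibitor of cytokine receptors, rose from 17 to 45.1 CPM (median 37.8 CPM) to 38.8 to 154 CPM (median 87.7 CPM; 1.37 ± 0.20, FDR 0.0034), the receptor chains CSF2RA and IL10RB rose by 0.84 ± 0.17 and 0.46 ± 0.10, and SOCS5 fell by 0.44 ± 0.11. Without heifer 688, SOCS3 alone rose, without heifer 669 the list had 5 genes that rose, and the call of SOCS5 held only without heifer 560. Of 15 adhesion genes, 4 rose, among them ITGB7 (0.54 ± 0.09), ICAM3 (1.11 ± 0.20) and SELPLG (0.62 ± 0.14, not called without heifer 628 or 688).

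Of 12 receptors for hormones and interferons of pregnancy, 1 rose (8.33%), where 4.49% of all tested genes rose and 1.01% fell. IFNAR2, a chain of the type I interferon receptor, measured 75.7 to 92.3 CPM (median 81.7 CPM) and 88.6 to 215 CPM (median 132 CPM; log2 0.67 ± 0.14 SE, FDR 0.0219), but was not called without heifer 633 or 688. In the circadian list of 18, 1 gene rose (5.56%) and 2 fell (11.1%). The repressor NFIL3 rose from 9.73 to 34.2 CPM (median 15 CPM) to 25.9 to 123 CPM (median 51.4 CPM, log2 1.74 ± 0.33, FDR 0.0122), and BHLHE41 and BHLHE40 fell by 0.50 ± 0.11 and 0.46 ± 0.11. ITGA2B, an integrin chain of platelets, rose by 0.37 ± 0.09 (36.8 to 102 CPM and 57 to 125 CPM, medians 68.2 and 88.8 CPM, FDR 0.0426), alone (7.14%) among 14 platelet genes whose median was -0.30. ALAS2, the first enzyme of heme synthesis in red cell precursors, fell by 1.01 ± 0.20 (2.72 to 70.1 CPM and 1.53 to 31.6 CPM, medians 8.69 and 4.85 CPM, FDR 0.0132), alone among 6 erythroid genes. Without heifer 688 the calls of NFIL3, BHLHE41, BHLHE40, ITGA2B and ALAS2 were all lost, and without heifer 628 all but that of NFIL3 were. BHLHE41, BHLHE40 and ITGA2B were also lost without heifer 633 or 669, BHLHE40 without 560 and ITGA2B without 519. The only tested symbol of 19 trophoblast genes was PAG1 (-0.16, FDR 0.466, medians 478 and 413 CPM). This symbol is also used for a signalling adaptor of lymphocytes, and PAG2, PAG11, CSH2 and PRP1 had 0 reads. The PAG1 value is therefore not read as a trophoblast level.

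Replication-dependent histone genes were examined as a further list. This list was drawn up after histone genes had been seen at the top of the genes that fell, so its count is a description: 16 of 29 tested genes fell and none rose (median -0.99), and 10 of them had every D105 library below every D55 library. HIST1H1E_1, a linker histone, went from 17.2 to 56.4 CPM (median 29.5 CPM) to 2.64 to 12.6 CPM (median 5.32 CPM), without overlap (log2 -2.21 ± 0.24 SE, FDR 0.00107). For the core histone HIST1H2BM the values were 5.09 to 11.7 CPM (median 8.12 CPM) and 0.89 to 2.62 CPM (median 2.07 CPM; -2.12 ± 0.30, FDR 0.00254), and for HIST3H2A 5.99 to 9.94 CPM (median 6.63 CPM) and 1.57 to 3.93 CPM (median 2.5 CPM; -1.58 ± 0.16, FDR 0.000644). HIST2H2BF fell from 3.3 to 7.54 CPM (median 4.22 CPM) to 0.897 to 2.18 CPM (median 1.31 CPM; -1.79 ± 0.24, FDR 0.00223). HIST2H2AB (-1.47 ± 0.20) and HIST3H2BB (-1.06 ± 0.15) did not overlap between the days either, and HIST1H2AC (-1.24 ± 0.17) overlapped slightly.

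Histone genes HIST1H2AH (log2 -1.92 ± 0.36 SE), HIST1H2AM (-1.87 ± 0.33) and HIST1H2BN (-1.81 ± 0.28) were among the 5 largest decreases. Other histone genes did not pass the test: HIST2H2BE, the most abundant with medians of 127 and 116 CPM, had a log2 value of -0.08 (FDR 0.624), and HIST1H1C one of -0.08 (FDR 0.873). Messengers of these genes mostly end without a poly(A) tail, so their counts depend on how the library was made (its part was not tested), and the near-identical copies can share or lose reads in counting, so single members are uncertain. None of 25 cell cycle genes passed the test (median -0.04), where 5.5% of all tested genes did. Among them PLK1 stood at 0.39 (FDR 0.0923) and MCM6 at -0.23 (FDR 0.217). Without the heifers 628 and 688, 8 of the histone genes fell.

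Among the other genes that fell, PRDM16, a zinc finger transcription factor, measured 1.95 to 12.5 CPM (median 8.45 CPM) and 0.959 to 4.44 CPM (median 3.49 CPM; log2 -1.22 ± 0.16 SE, FDR 0.00214). FADS1, the delta-5 desaturase of polyunsaturated fatty acids, measured 16.1 to 46.4 CPM (median 17.9 CPM) and 8.55 to 27.3 CPM (median 11.8 CPM; -0.82 ± 0.12, FDR 0.00313). LURAP1, an adaptor protein, went from 9.67 to 50.6 CPM (median 21.8 CPM) to 5.57 to 37.5 CPM (median 12.8 CPM; -0.76 ± 0.11, FDR 0.0034). The days overlapped for all 3, although each was lower on D105 in all 6 heifers. LOC112442864 (-1.04 ± 0.18) and LOC112443343 (-1.22 ± 0.22) also fell, which the RefSeq gene table lists as a small nucleolar RNA and a small nuclear RNA.

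No gene of the housekeeping lists passed the test, where 5.5% of all tested genes did. None of 45 cytosolic ribosomal protein genes passed, although 41 were above 0 (median 0.15, RPL37 at 0.28 with FDR 0.34), and none of 29 respiratory chain genes (median -0.05, ATP5F1A at -0.16 with FDR 0.285) or of 24 heat shock and chaperone genes did (median 0.01, HSPA9 at -0.14 with FDR 0.36).

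**Figure D3:**
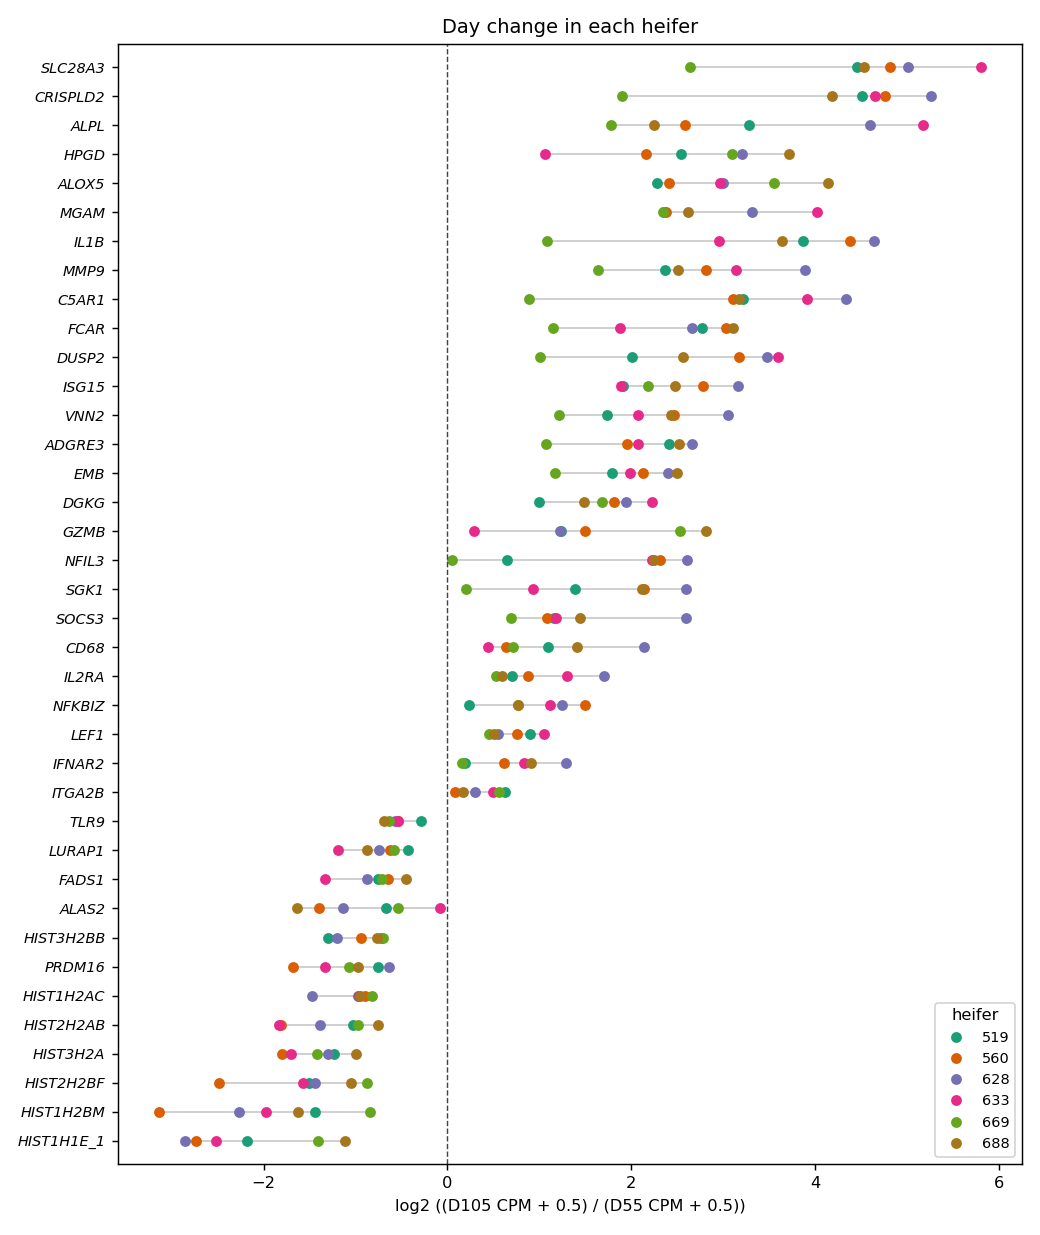
Log2 ratio of D105 to D55 CPM (0.5 CPM added to each) in each of the 6 heifers for the 38 genes whose levels are given by library. All points of a gene lie on 1 side of 0, and heifer 669 holds the smallest change for 18 of the 26 genes that rose.

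The size of the change differed between the 6 heifers. The median log2 change of the 684 genes that rose was smallest in heifer 669 (0.48) and largest in heifer 628 (1.85), and was 0.77, 1.0, 1.12 and 1.17 in 519, 560, 633 and 688. Among the 26 genes that rose and are given by library, heifer 669 had the smallest change in 18 and heifer 628 the largest in 13. Heifer 669 had the highest D55 levels of CXCR2 (75.1 CPM), C5AR1 (86.3 CPM) and IL1B (38.4 CPM). Over all tested genes, at least 2-fold changes numbered 140 up and 48 down in heifer 669, 978 and 118 in 628, and 761 and 592 in 633, the heifer with the most decreases.

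**Figure D4:**
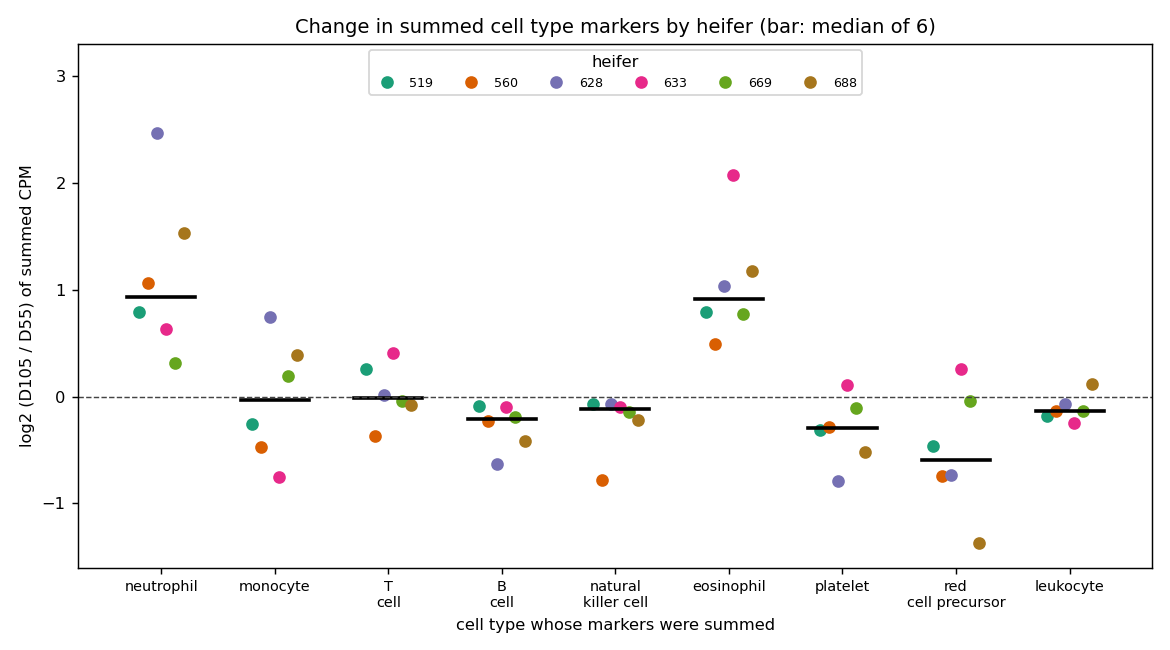
Log2 ratio of D105 to D55 for the summed CPM of the defining markers of 9 cell types, with 1 point for each heifer and a bar at the median. Neutrophil and eosinophil sums, which include the called genes CXCR2, MMP25 and SIGLEC8, were higher in all 6 heifers. B cell and natural killer cell sums were lower in all 6. The other sums went both ways, with platelet, red cell precursor and pan-leukocyte sums each higher in 1 of 6 heifers.

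The defining markers of the cell types were summed in each library. Of the neutrophil markers, 3 of 4 were in the table (CXCR2, FCGR3A and MMP25), and their sum ranged from 173 to 319 CPM on D55 (median 248 CPM) and from 300 to 1249 CPM on D105 (median 495 CPM), being higher in 6 of 6 heifers. Their log2 fold changes were 3.86, 0.12 (FDR 0.682) and 0.86, and CXCR2 and MMP25 are themselves among the 684 genes that rose. The eosinophil markers SIGLEC8, CCR3 and IL5RA summed to 24.3 to 78 CPM (median 48.6 CPM) and 42.1 to 159 CPM (median 101 CPM), higher in 6 of 6. Of these markers SIGLEC8 (log2 1.87) is itself among the 684 genes that rose, and CCR3 (0.07, FDR 0.836) and IL5RA (0.44, FDR 0.36) did not pass the test. The 4 B cell markers summed to a median of 2943 CPM on D55 and 2441 CPM on D105, lower in 6 of 6, and natural killer markers (NCR1, KLRF1, PRF1) to 150.3 and 112 CPM, also lower in 6 of 6.

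T cell markers (CD3E, CD3D, CD5, LCK) had medians of 878 and 883 CPM and the 4 monocyte markers of 314 and 289 CPM, each higher in 3 of 6 heifers. Platelet sums (ITGA2B, GP9, PF4, TUBB1) had medians of 887 and 806 CPM and red cell precursor sums (ALAS2, HBB, AHSP) of 78.2 and 69.5 CPM, each higher in 1 of 6 heifers. No B cell, natural killer cell, T cell or monocyte marker passed the test on its own. The part of cell type proportions in the changes above was not tested, because no cell counts were used here.

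The same comparison was made in the 8 AI and the 9 IVP-LOS heifers, which share no library with the IVP-Normal heifers. In those groups all D105 libraries belong to the set BACKUP and all D55 libraries to the set New, so day and library set cannot be told apart in them. In AI heifers 10.2% of tested genes rose and 6.89% fell, and in IVP-LOS heifers 0.778% rose and 0.29% fell. Of the 684 genes that rose in IVP-Normal heifers, 673 were tested in AI heifers, where 672 had a fold change above 0 (44.7% of all tested genes did), 626 rose, and the median log2 fold change was 1.17. In IVP-LOS heifers 624 were tested, 607 were above 0 (48.1% of all tested genes were) and 96 rose, with a median of 0.52 against 1.11 for the same genes in IVP-Normal heifers. Of the 154 genes that fell, 150 of 153 were below 0 in AI heifers (55.3% of all tested genes were), with 95 called, and 152 of 152 in IVP-LOS heifers (51.9% of all tested genes were), with 24 called.

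**Figure D5:**
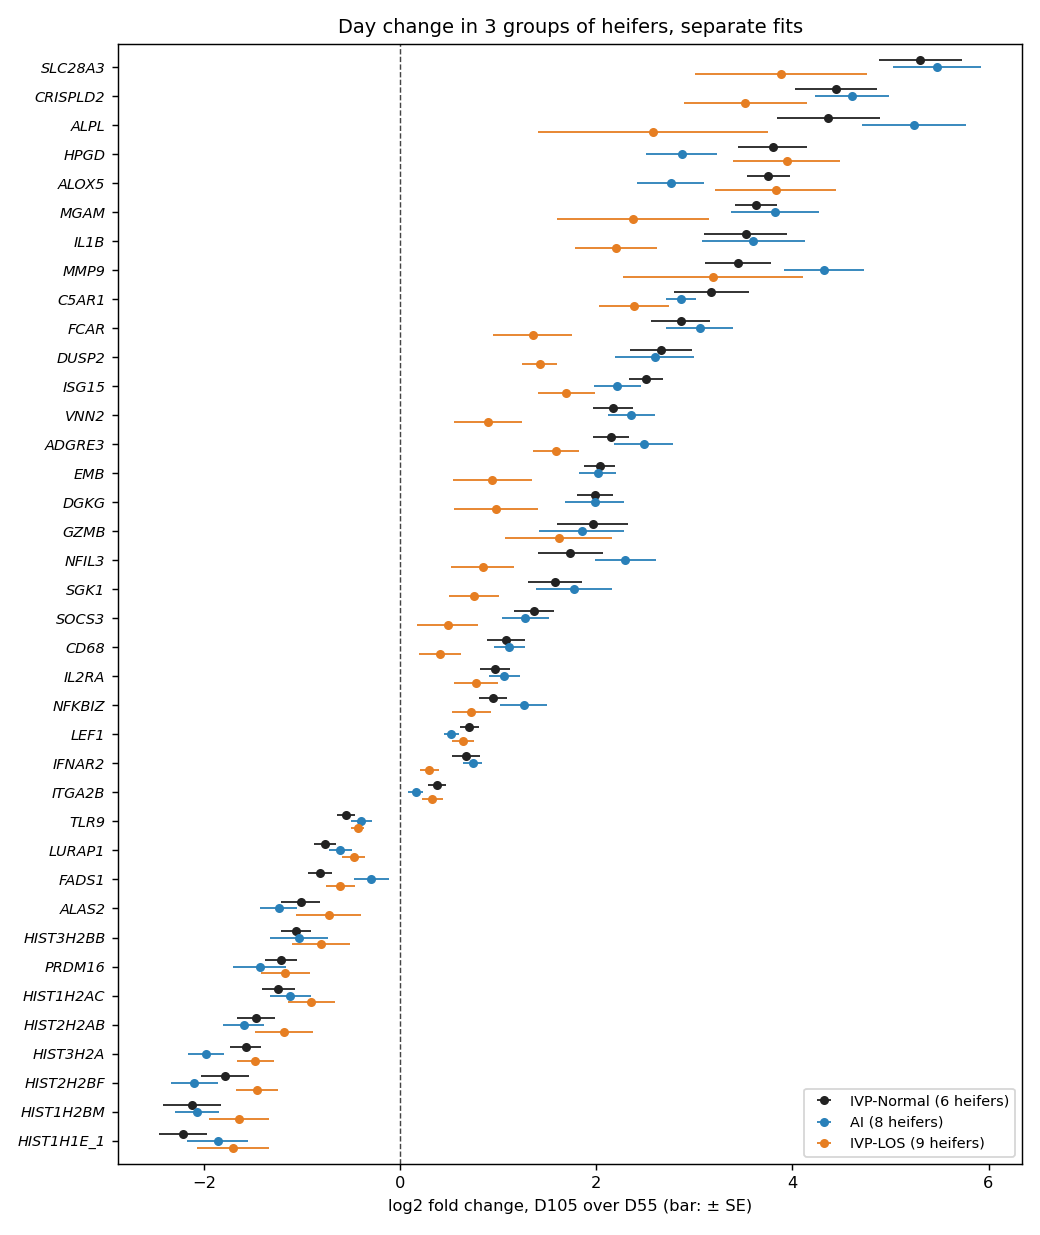
Log2 fold change of D105 over D55 with its SE for 38 genes, fitted separately in 6 IVP-Normal, 8 AI and 9 IVP-LOS heifers. The estimates share their sign in the 3 groups for every gene plotted, and many IVP-LOS estimates of genes that rose, such as VNN2 and SOCS3, lie nearer to 0.

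By gene, the IVP-Normal and AI values were often close. CRISPLD2 had log2 fold changes of 4.44 ± 0.42 SE in IVP-Normal, 4.60 ± 0.38 in AI and 3.52 ± 0.63 in IVP-LOS heifers. For C5AR1 these were 3.17 ± 0.38, 2.86 ± 0.15 and 2.39 ± 0.36, and for IL1B 3.52 ± 0.42, 3.60 ± 0.52 and 2.20 ± 0.42. VNN2 gave 2.17 ± 0.20, 2.36 ± 0.24 and 0.90 ± 0.35. HIST1H1E_1 gave -2.21 ± 0.24, -1.86 ± 0.31 and -1.70 ± 0.37. FADS1 fell in IVP-Normal heifers (-0.82 ± 0.12) and did not pass in AI (-0.29 ± 0.18, FDR 0.281) or IVP-LOS heifers (-0.61 ± 0.15, FDR 0.0732).

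By list, interleukin-1 and inflammasome genes rose in 14 of 19 cases in AI heifers (median 1.04) and 1 of 19 in IVP-LOS heifers (median 0.11). Interferon-stimulated genes rose in 19 of 38 (median 0.37) and 1 of 38 (median 0.17), and chemoattractant receptors in 5 of 8 (median 2.41) and 1 of 8 (median 1.42). Over all tested genes 10.2% rose in AI and 0.778% in IVP-LOS heifers. None of these side by side values shows that the groups differ. When the difference in the day change was tested directly with the edgeR quasi-likelihood test, 0 of 16096 genes (0%) differed between IVP-Normal and AI heifers (1003 at an unadjusted p under 0.05) and 0 of 16181 (0%) between IVP-Normal and IVP-LOS heifers (449 at an unadjusted p under 0.05). DESeq2 called 0 genes for IVP-LOS and 1 for AI, SHISA8, named here because it was the only one, whose log2 fold change was 0.08 ± 0.14 SE in IVP-Normal and -0.84 ± 0.11 in AI heifers (difference -0.94 ± 0.19, DESeq2 FDR 0.0128, edgeR FDR 0.685).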

How the data were processed

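Libraries of leukocyte RNA (BGI DNBSEQ-G400, paired ends) had been trimmed and aligned to ARS-UCD1.2 with HISAT2 2.1.0. The authors counted reads with HTSeq-count (union mode) and deposited the raw counts, without normalization, for 30675 genes of the NCBI RefSeq set. A second table of 27607 Ensembl genes served only as an alternative. The strand setting and RNA selection are not given in the sources used here, so overlapping and antisense genes are uncertain. Summary lines were kept out of totals and tests.

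D105 was compared with D55 in R 4.3.3 with edgeR 4.0.16. The 12 libraries were fitted with heifer as a block, TMM scaling, filterByExpr (minimum count 10) and the quasi-likelihood F-test, and p-values were adjusted over all tested genes by Benjamini-Hochberg (FDR at most 0.05). SE is the absolute log2 fold change divided by the root of F. Same-numbered libraries come from the same heifer. After subtracting each day's mean, the paired libraries correlated at 0.27 to 0.83 across genes, and each D55 library correlated best with that heifer's own D105 library. Differences in the day change were tested as an interaction, with DESeq2 1.42.0 as the second tool. The fit was tested on simulated counts. Counting error alone is small for genes with many reads, and p-values rest on the spread between heifers.

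The comparison, gene lists and markers were chosen with earlier results of these data known. Genes were named by rule: the 10 smallest FDR values in each direction (2 for LOC symbols), the 5 largest and 5 smallest changes with a mean of at least 1 CPM and the same direction in 6 of 6 heifers, and in each list up to 4 called members, or the 2 with the smallest p. Other list members were named after their values were seen, and some genes that meet the rule are not reported here. Of the tested symbols, 90.8% matched a RefSeq gene table, whose assembly (ARS-UCD2.0) differs from that of the alignment, so neither coordinates nor sequences are given. Calendar dates, fetal weights and qRT-PCR were not analysed here.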

Additional observations from a re-analysis of the deposited data

Results flagged for a closer look

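Among 143 sets of 6 values examined, which are the levels on each day and the log2 changes of genes named by rule and the summed markers, 17 held a value set far apart from the other 5 (Dixon's test at the 95% level). For independent sets of normally distributed values chance alone gives about 1 in 20. These sets share their heifers and many are CPM levels on a linear scale, so their number cannot be compared with that rate. Heifer 628 held 7 of the 17. Her values were the highest for CRISPLD2 on D105 (211 CPM), for MGAM on D55 (2.73 CPM), for ALAS2 on D55 (70.1 CPM) and D105 (31.6 CPM), and for FCAR on D55 (6.46 CPM) and D105 (43.6 CPM), and her HIST1H2AC change of -1.48 on the log2 scale was the largest decrease. Heifer 688 stood apart on D105 for ALOX5 (56.5 CPM), HPGD (19.6 CPM), GZMB (12.9 CPM) and the summed leukocyte markers (5431 CPM). Heifer 669 had the highest D55 levels of DUSP2 (177 CPM) and SGK1 (169 CPM) and the smallest log2 changes of CRISPLD2 (1.90) and C5AR1 (0.89). Heifer 519 had the highest D105 levels of FADS1 (27.3 CPM) and LURAP1 (37.5 CPM).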

How the results depend on the processing

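With no replicate block, thus without the pairing by heifer, 346 genes rose and 28 fell in place of 684 and 154, and 373 of the 838 called genes were still called. Without the heifers 628 and 688 the counts were 190 and 15. A further limit of at least 2-fold left 407 and 32. Leaving out 1 heifer gave 385 (without 688) to 740 (without 669) genes that rose and 50 (without 628) to 365 (without 560) that fell, and the latter count was 78, 98, 83 and 60 without 519, 633, 669 and 688. The number that fell was also 427 with the edgeR likelihood ratio test, 275 with that of DESeq2, 274 with both, 539 with all 46 libraries in 1 fit and 64 on the Ensembl table, and the causes were not tested. Counts of genes that rose were within 1.5 times of 684 under these settings and, in both directions, with upper-quartile or DESeq2 scaling, with no expression filter and with the share of reads on no gene as a covariate. The difference in day change from AI heifers gave 1 gene with DESeq2 (SHISA8) and 0 with edgeR. That from IVP-LOS heifers gave 0 genes with either tool, and also 0 with edgeR without the IVP-LOS heifers 604 and 664. Of 95 called genes named by rule, 39 passed in all 15 settings and none changed direction. The most calls were lost without 628 and 688 (46), without the pairing (38) and without 688 (21).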

Other observations

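Genes of sterol and fatty acid synthesis were examined after FADS1 and related genes had been seen among those that fell, so the list was chosen after its values were known. Of 28 tested genes, 7 fell and none rose (median log2 fold change -0.26, against -0.03 for all tested genes), and 27 were below 0. In the cholesterol branch, HMGCS1, which makes the precursor of mevalonate, fell by 0.55 ± 0.11 SE (medians 102 and 76.6 CPM), SQLE, which opens the sterol part of the pathway, by 0.47 ± 0.09 (102 and 74.9 CPM) and CYP51A1 by 0.48 ± 0.11. In the fatty acid branch, the desaturase SCD fell by 0.79 ± 0.16 (47.9 and 27.4 CPM) and the fatty acid synthase FASN by 0.37 ± 0.08 (214 and 169 CPM). The regulators SREBF2 (-0.22, FDR 0.17) and SREBF1 (-0.28, FDR 0.185) did not pass. The number that fell was 3 without heifer 519, 4 without 669 or 688, 6 without 560 or 628 and 7 without 633, and it was 2 without both 628 and 688 and 0 without the pairing by heifer. In AI heifers 3 of the 28 genes fell (median -0.18), and in IVP-LOS heifers none did (median -0.23). Over all tested genes 6.89% fell in AI and 0.29% in IVP-LOS heifers, so neither count departs far from the share of its group.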
